A study of Mus musculus with 4 samples.

Results

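The genes described here are 9 components of the adrenergic and cAMP signalling route in brown adipose tissue (BAT), namely the receptors Adrb1, Adrb3 and Adra1a, the stimulatory G protein gene Gnas, the adenylyl cyclase gene Adcy3, the protein kinase A (PKA) subunit genes Prkar2b, Prkaca and Prkacb, and the phosphodiesterase gene Pde3b. They were chosen by name and not by a rule on their values, but with earlier results of these data known. They are 9 of the 22298 genes listed in the count tables. Messenger RNA was sequenced from BAT of C57BL/6 fetuses (C57BL/6J in the study's methods) taken on the final day of pregnancy. Control dams drank tap water during pregnancy and fructose dams drank water with 20% (w/v) fructose, with 2 libraries in each group. Neither the number of fetuses nor of litters behind a library was given in the sources used here, so every p-value measures only the spread between these libraries, which may be technical.

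The libraries held 18542897 to 23645147 counts. The labels give male fetuses in all 4 libraries, but 4 Y-linked genes together had 422 and 390 counts in control 1 and control 2 and 0 in both fructose libraries, which goes against the label of the fructose libraries. Sex and maternal fructose therefore cannot be told apart in any comparison here, and no comparison is possible without these libraries. Mitochondrially encoded genes took 5.89% and 6.49% of the control counts and 10.8% and 11.2% of the fructose counts. The 8 brown adipocyte markers summed to between 22405 and 26291 CPM (read counts scaled to sequencing depth by the TMM method) in every library, so that these markers were present in all. Of these 8, 1 was higher in fructose and 2 were lower. The 8 skeletal muscle markers were all higher in fructose, with sums of 250 and 339 CPM in control and 795 and 594 CPM in fructose. The 5 erythroid markers were all lower, with sums of 19184 and 15262 CPM in control and 11744 and 12125 CPM in fructose. Their part in the results below was not tested. In whole tissue, fewer cells of a type and less RNA per cell cannot be told apart.

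Noradrenaline from sympathetic nerves is the main signal that switches on heat production in brown fat. It binds beta-adrenergic receptors, which act through the stimulatory G protein on adenylyl cyclases to raise cAMP. The cAMP releases the catalytic subunits of PKA from its regulatory subunits, and PKA then promotes lipolysis and the transcription of thermogenic genes through factors such as CREB. Phosphodiesterases break cAMP down and end the signal, while alpha-1 receptors act in parallel through Gq and calcium.

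Of the 9 genes, Prkar2b, Prkacb, Pde3b and Adra1a were higher in fetal BAT of fructose dams and Gnas was lower. Adrb1, Adrb3, Adcy3 and Prkaca did not pass the test, which was the quasi-likelihood test of edgeR, with p-values adjusted by Benjamini-Hochberg over the 12888 genes tested and a threshold of 0.05. Thus 4 of 9 genes (44.4%) were called higher against 15.5% of all tested genes, and 1 of 9 (11.1%) was called lower against 10.7%. The median log2 fold change of the 9 genes was 0.36, beside 0.0025 over all tested genes. In 5 of the 9 both fructose libraries lay above both control libraries, which held for 33.4% of all tested genes, and in 2 both lay below, which held for 31.6%. The remaining 2, Adrb1 and Adcy3, overlapped between the groups.

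**Figure D1:**
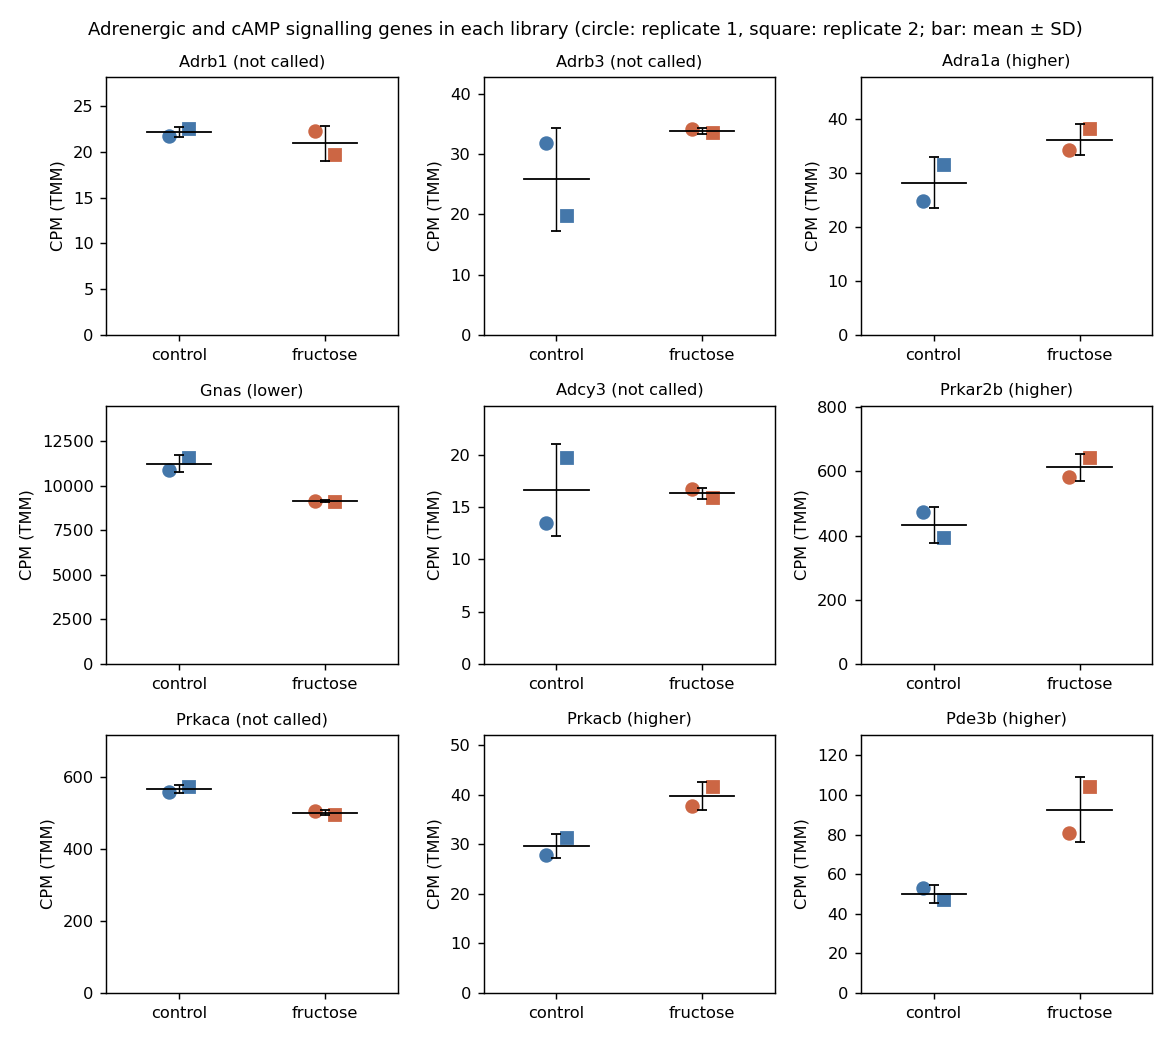
Level of each of the 9 genes in each library, in CPM after TMM scaling, with blue for control, orange for fructose, circles for replicate 1, squares for replicate 2 and bars for the mean ± SD of 2 libraries. Pde3b rose from 53.1 and 47.0 to 81.0 and 104 CPM, while the Adrb1 and Adcy3 points of the groups overlap.

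The 9 genes differed widely in level. Scaled per kb of exon, Gnas was highest in control BAT at 1005 ± 42.2 CPM per kb (SD, n = 2), followed by Prkaca at 227 ± 4.35 and Prkar2b at 118 ± 15.5 CPM per kb. The other 6 genes lay far lower, in the order Adrb3 at 7.64 ± 2.51, Adrb1 at 6.54 ± 0.16, Pde3b at 5.49 ± 0.48, Prkacb at 3.37 ± 0.27, Adra1a at 3.23 ± 0.54 and Adcy3 at 2.66 ± 0.71 CPM per kb. Among neighbours in this order, the control libraries of Adrb3 and Adrb1, of Prkacb and Adra1a, and of Adra1a and Adcy3 overlapped. In fructose BAT, Pde3b reached 10.2 ± 1.81 CPM per kb, beside 10.01 ± 0.16 for Adrb3 and 6.19 ± 0.55 for Adrb1. These levels depend on the length used. Prkacb has an exon union of 8772 bases and a longest transcript of 4347, and Adra1a 8728 and 4282. Per kb of the longest transcript, Pde3b lay above Adrb1 in control BAT, the reverse of the order above. In fructose BAT, Pde3b was then at 14.1 and Adrb3 at 12.1 CPM per kb. For Gnas, the union of its annotated exons is 11186 bases and its longest transcript 3947 bases. Per kb of that transcript, Gnas had 2848 CPM in control BAT against 2314 CPM in fructose BAT, still above the other 8 genes.

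The promoters of the PKA subunit genes and of Gnas are shown because these genes carry most of the called changes and some hold the core of the cAMP response element, the site that CREB binds. RefSeq windows of 300 bases around the start site (GRCm38.p6) were found for 6 of the 9 genes, 14 windows in all, and not for Adrb3, Adra1a or Pde3b. Each sequence below gives the 250 bases before a start site, 5′ to 3′ on the gene's strand, with capitals marking TGACG or its complement CGTCA. Of the 2 Prkar2b, 3 Prkacb, 2 Prkaca and 4 Gnas windows, 1 each is shown, chosen after the motifs were counted, and the Prkar2b, Prkaca and Prkacb windows not shown hold no core. The sequences are Prkar2b at chr12:32061278-32061527 on the minus strand, Prkacb at chr3:146812947-146813196 on the minus strand, Prkaca at chr8:83972728-83972977 on the plus strand and Gnas window 4 at chr2:174329756-174330005 on the plus strand.
Prkar2b: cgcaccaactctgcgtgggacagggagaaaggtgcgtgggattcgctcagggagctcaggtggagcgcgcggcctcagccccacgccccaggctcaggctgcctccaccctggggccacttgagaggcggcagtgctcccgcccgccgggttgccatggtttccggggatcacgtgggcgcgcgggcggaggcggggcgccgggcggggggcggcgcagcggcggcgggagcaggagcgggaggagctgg
Prkacb: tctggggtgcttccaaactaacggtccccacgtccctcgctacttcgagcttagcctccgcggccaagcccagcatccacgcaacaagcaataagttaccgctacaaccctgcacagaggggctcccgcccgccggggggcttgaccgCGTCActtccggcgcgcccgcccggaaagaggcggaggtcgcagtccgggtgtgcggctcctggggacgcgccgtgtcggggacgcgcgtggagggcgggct
Prkaca: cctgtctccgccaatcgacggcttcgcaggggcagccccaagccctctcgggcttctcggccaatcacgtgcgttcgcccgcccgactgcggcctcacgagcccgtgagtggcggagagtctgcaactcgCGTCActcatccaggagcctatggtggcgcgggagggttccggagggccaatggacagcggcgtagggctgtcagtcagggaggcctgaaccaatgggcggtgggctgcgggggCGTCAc
Gnas: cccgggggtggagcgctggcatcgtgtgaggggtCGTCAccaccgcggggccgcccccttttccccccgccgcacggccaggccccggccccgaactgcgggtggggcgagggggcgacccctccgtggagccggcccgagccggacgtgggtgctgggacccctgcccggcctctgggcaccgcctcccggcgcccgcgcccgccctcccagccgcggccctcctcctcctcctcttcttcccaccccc

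The core TGACG, searched on both strands, was in 6 of the 14 windows and in 4 of the 6 genes, namely Adrb1, Gnas, Prkaca and Prkacb, beside 20.81% of all 32851 RefSeq windows. Gnas windows 1 and 3 overlap, and their core is the same genomic site counted in both, as are their CCAAT and TATAAA matches. The full palindrome TGACGTCA, which contains the core on both strands, was in 0 of the 14 windows, beside 1.79% of all windows. The GC box GGGCGG was in 7 of the 14 windows, covering all 6 genes, beside 35.66% of all windows. In the other motifs the 14 windows held CCAAT in 5 (37.41% of all windows), TATAAA in 4 (13.62%) and CACGTG in 2 (7.15%). Of the called genes with a window, Prkacb, which was higher, and Gnas, which was lower, held the core, and Prkar2b, which was higher, did not. Adrb1 and Prkaca held it and did not pass the test. A match of letters is a description and not a binding site.

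Among the receptors, the beta genes Adrb1 and Adrb3 did not pass the test and the alpha-1 gene Adra1a was 1.28-fold higher. Adrb1 (ENSMUSG00000035283, GRCm38 chr19:56722199-56733113) encodes the beta-1 receptor, which is linked to growth of brown adipocyte precursors. Control BAT gave 412 and 406 counts and fructose BAT 503 and 480, or 21.7, 22.5, 22.2 and 19.6 CPM. The groups overlapped, and the log2 fold change was -0.08 with a 95% interval of -0.34 to 0.17 (adjusted p = 0.644).

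Adrb3 (ENSMUSG00000031489, chr8:27225776-27250616) encodes the beta-3 receptor, the form that marks mature adipocytes. Control BAT gave 602 and 357 counts and fructose BAT 773 and 819, or 31.8 and 19.8 against 34.2 and 33.4 CPM. Both fructose libraries lay above both control libraries, but control 1 lay close to them and control 2 far below. The log2 fold change was 0.39 (95% interval 0.03 to 0.75, adjusted p = 0.105). Control 2 decided this value, since the log2 fold change was 0.77 without control 1 and 0.09 without control 2. The antisense gene Gm45470 overlaps Adrb3 and was not analysed here, so reads of the pair may be mixed.

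Adra1a (ENSMUSG00000045875, chr14:66635251-66771168), the alpha-1A receptor gene, had 471 and 568 counts in control and 772 and 934 in fructose. In CPM these were 24.9 and 31.5 against 34.1 and 38.1, with both fructose libraries above both control libraries. The log2 fold change was 0.36 ± 0.12 (SE, adjusted p = 0.0463). The call was lost without control 1 (log2 fold change 0.20, adjusted p = 0.244), without fructose 2 (0.28, adjusted p = 0.231) and with DESeq2 (adjusted p = 0.121).

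Among the alpha receptors outside the 9 genes, neither tested gene passed the test. Adra1d had 207, 262, 216 and 266 counts in control 1, control 2, fructose 1 and fructose 2 (log2 fold change -0.32, adjusted p = 0.185) and Adra2b had 65, 40, 47 and 68 (-0.22, adjusted p = 0.632). Adra1d was at -0.51 and called lower without control 1 (adjusted p = 0.0191), at -0.10 without control 2 and at 0.06 with the length and GC trends described below removed, and Adra2b was at 0.13 without control 1 and -0.49 without control 2. Adra1b, Adra2a and Adra2c had at most 15 counts in any library and were not tested. As a share of the counts per kb of the alpha-1 receptors, Adra1a went from 33.0% and 32.1% in control to 43.5% and 43.2% in fructose. This share was separated between groups, with an exact two-sided permutation p of 0.333, the smallest that 2 libraries against 2 allow.

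**Figure D2:**
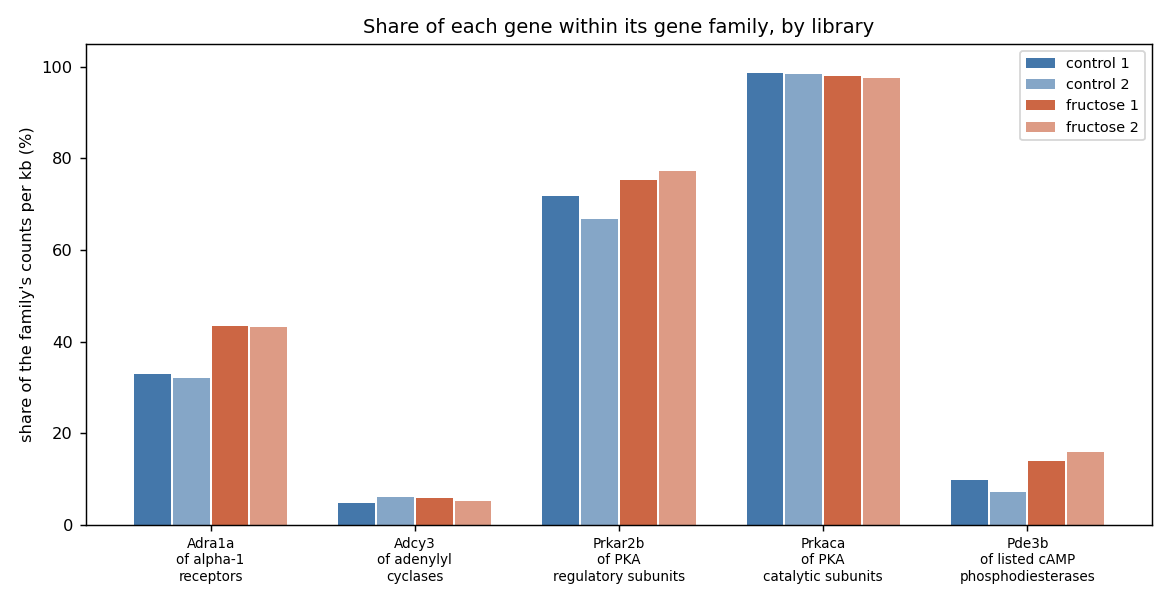
Share of the family's counts per kb of exon (percent) taken by each gene in each library, with blue bars for control and orange bars for fructose. Adra1a, Prkar2b and Pde3b have higher bars in both fructose libraries, and Prkaca takes 97.7% to 98.6% of the catalytic subunits in every library.

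Downstream of the receptors, Gnas was 1.23-fold higher in control than in fructose and Adcy3 did not pass the test. Gnas (ENSMUSG00000027523, chr2:174284320-174346744) encodes the stimulatory G protein alpha subunit and is an imprinted locus with several start sites. Control BAT gave 206668 and 208724 counts and fructose BAT 207206 and 223080. Scaled to depth these gave 10906 and 11574 CPM in control and 9162 and 9107 CPM in fructose, so the fructose libraries were both lower by more than the spread within either group. The log2 fold change was -0.30 ± 0.10 (SE, adjusted p = 0.0411). The call was lost without fructose 1 (adjusted p = 0.164), without fructose 2 (adjusted p = 0.211), with scaling by library size only (-0.24, adjusted p = 0.0675) and with the replicate number as a block (-0.30, adjusted p = 0.0865). The antisense gene Nespas overlaps the locus and was not analysed here, and whether strand was used in counting was not given in the sources used here.

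Adcy3 (ENSMUSG00000020654, chr12:4133103-4213525) encodes a membrane adenylyl cyclase of adipocytes. It had 256 and 356 counts in control and 378 and 390 in fructose, or 13.5, 19.7, 16.7 and 15.9 CPM. The control libraries lay on either side of the fructose libraries. The log2 fold change was -0.03 with a 95% interval of -0.39 to 0.34 (adjusted p = 0.927), and leaving out control 1 or control 2 gave -0.28 or 0.27. Cenpo overlaps Adcy3 on the opposite strand, with 82 to 117 counts per library, and without strand their reads cannot be told apart. Adcy3 was a small part of the cyclases, at 4.76% and 6.09% of their counts per kb in control and 5.74% and 5.11% in fructose. The cyclase gene with the highest level was Adcy6, at 35.1 CPM per kb over all libraries (log2 fold change -0.04, adjusted p = 0.781). None of the 6 other cyclases tested by edgeR passed the threshold, with log2 fold changes from -0.20 to 0.30.

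In PKA, the regulatory subunit gene Prkar2b and the catalytic subunit gene Prkacb were higher and the main catalytic subunit gene Prkaca did not pass the test. Prkar2b (ENSMUSG00000002997, chr12:31958476-32061296) encodes RII-beta, the regulatory subunit typical of fat and brain. Control BAT gave 8948 and 7073 counts and fructose BAT 13152 and 15750, or 472 and 392 against 582 and 643 CPM. Every fructose value lay above every control value, and the 1.42-fold difference (95% interval 1.21 to 1.65) had an adjusted p of 0.00501. Within the regulatory subunits, Prkar2b took 71.7% and 66.8% of counts per kb in control and 75.3% and 77.3% in fructose (exact permutation p = 0.333).

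Prkaca (ENSMUSG00000005469, chr8:83972993-83996443), the gene of the C-alpha subunit, had 10578 and 10343 counts in control and 11444 and 12136 in fructose. In CPM these were 558 and 574 against 506 and 495, with both fructose libraries below both control libraries. The log2 fold change of -0.18 (95% interval -0.35 to 0.00) did not pass the test (adjusted p = 0.129). Prkacb (ENSMUSG00000005034, chr3:146729574-146812990), the gene of the C-beta subunit, had 528 and 564 counts in control and 852 and 1020 in fructose, or 27.9 and 31.3 against 37.7 and 41.6 CPM. The 1.34-fold difference (95% interval 1.15 to 1.57, adjusted p = 0.0113) was larger than the spread within the groups, and its call was lost without fructose 2 (log2 fold change 0.35, adjusted p = 0.0914). The level of Prkacb remained far under that of Prkaca, which took 98.6% and 98.5% of catalytic subunit counts per kb in control and 97.9% and 97.7% in fructose.

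Pde3b (ENSMUSG00000030671, chr7:114415281-114539251) showed the largest fold change of the 9 genes. It encodes phosphodiesterase 3B, the enzyme through which insulin lowers cAMP and restrains lipolysis in adipocytes. It had 1007 and 847 counts in control and 1831 and 2555 in fructose, or 53.1 and 47.0 against 81.0 and 104 CPM. Both fructose libraries lay well above both control libraries, with fructose 2 the higher. The fold change was 1.85 (95% interval 1.55 to 2.21, adjusted p = 0.000585), and Pde3b was called higher in all 16 alternative settings run, with log2 fold changes of 0.40 to 1.06. Of the counts per kb of all listed cAMP phosphodiesterases, Pde3b took 9.68% and 7.06% in control and 14.0% and 15.9% in fructose (exact permutation p = 0.333). Its share of Pde3a and Pde3b together overlapped between the groups, at 94.1% and 94.6% against 94.2% and 95.3%.

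These fold changes moved with gene length and base composition across the whole table. Over all tested genes, the log2 fold change had a Spearman correlation of 0.46 with exon length and -0.50 with GC content, given across genes, which are not independent replicates. Genes called higher had a median exon length of 7414 bases and a median GC content of 43.9%, and genes called lower had 2670 bases and 54.9%. Among the 9 genes, those called higher had 44.0% GC in Pde3b, 44.1% in Prkar2b, 45.4% in Prkacb and 50.1% in Adra1a. Gnas, which was called lower, had 57.8% GC. Their exon lengths did not all follow the trend, at 9114 bases in Pde3b, 8772 in Prkacb and 8728 in Adra1a, but 3652 in Prkar2b, under the median of 4492 over all tested genes, and 11186 in Gnas.

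With smooth trends of length and GC removed from the fit, 5.43% of all tested genes were called higher and 6.62% lower, and 3 of the 9 genes were called higher and 1 lower. Pde3b went from a log2 fold change of 0.89 to 0.46 (adjusted p = 0.0132) and Prkar2b from 0.50 to 0.38 (adjusted p = 0.0210). Adrb3 stood at 0.57 and passed the test (adjusted p = 0.0413). Adra1a was then at 0.15 (adjusted p = 0.446) and Prkacb at 0.07 (adjusted p = 0.694), so both calls were lost. Gnas stood at -0.50 (adjusted p = 0.0101) with its exon union length and at -0.21 (adjusted p = 0.242) with its longest transcript. With the longest transcript as the length, Pde3b alone of the 9 stayed called, at 0.40 (adjusted p = 0.0300), with Prkar2b at 0.32 (adjusted p = 0.0526) and Adrb3 at 0.56 (adjusted p = 0.0559). With the GC trend alone removed, Prkar2b was at 0.25 (adjusted p = 0.0877) and Gnas at -0.12 (adjusted p = 0.435). Whether the trends are technical was not tested.

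**Figure D3:**
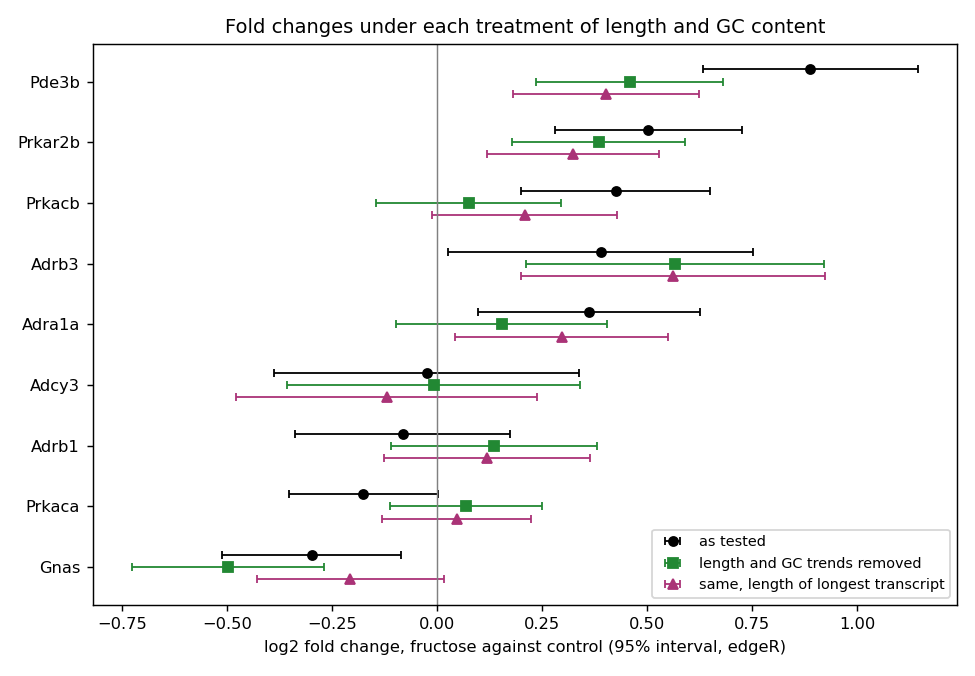
Log2 fold change of fructose against control with its 95% interval from edgeR for each of the 9 genes, as tested (black), with trends of union exon length and GC content removed (green), and with the length of the longest transcript used instead (purple). Pde3b moves from 0.89 to 0.46 and Prkacb from 0.42 to 0.07 from black to green, while Adrb3 moves from 0.39 to 0.57.

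**Figure D4:**
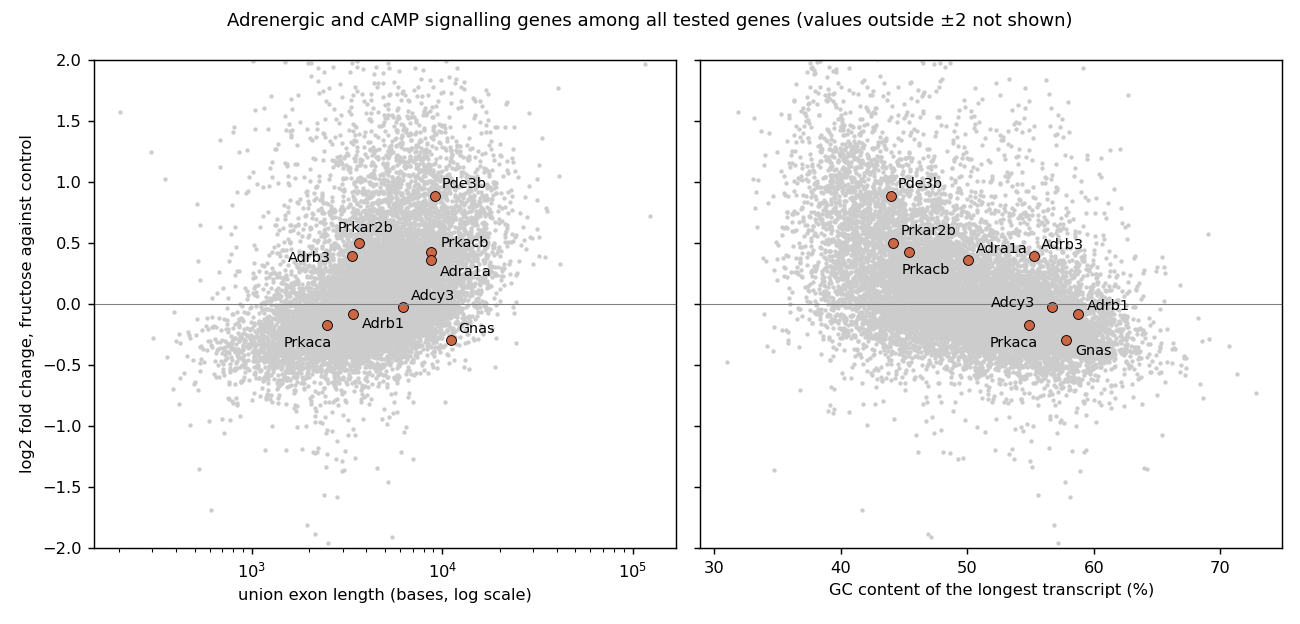
Log2 fold change of every tested gene (grey) against its union exon length in bases on a log scale (left) and its GC content in percent (right), with the 9 genes in orange. Long genes and genes of low GC content lie higher, and Pde3b, Prkar2b and Prkacb sit in the low GC region.

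Around these 9 genes, 117 other genes of the route were listed by role, of which 97 were tested, 18 were higher (18.6%) and 8 were lower (8.25%), shares near the 15.5% and 10.7% of all tested genes. Their median log2 fold change was 0.17. Of the 18 called higher, 7 were also called with the length and GC trends removed, and of the 8 called lower, 0 were, while Gnb4, Gng5 and Sik3 were called lower in that fit and not without it. In that fit the sign turned for Akap9 and Pde7b among those called higher, and for Gng11 among those called lower. With 1 library left out, 16 of the 18 higher calls were kept without control 1, 14 without control 2, 15 without fructose 1 and 11 without fructose 2. Of the 8 lower calls, 6, 5, 3 and 0 were kept in the same order.

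**Figure D5:**
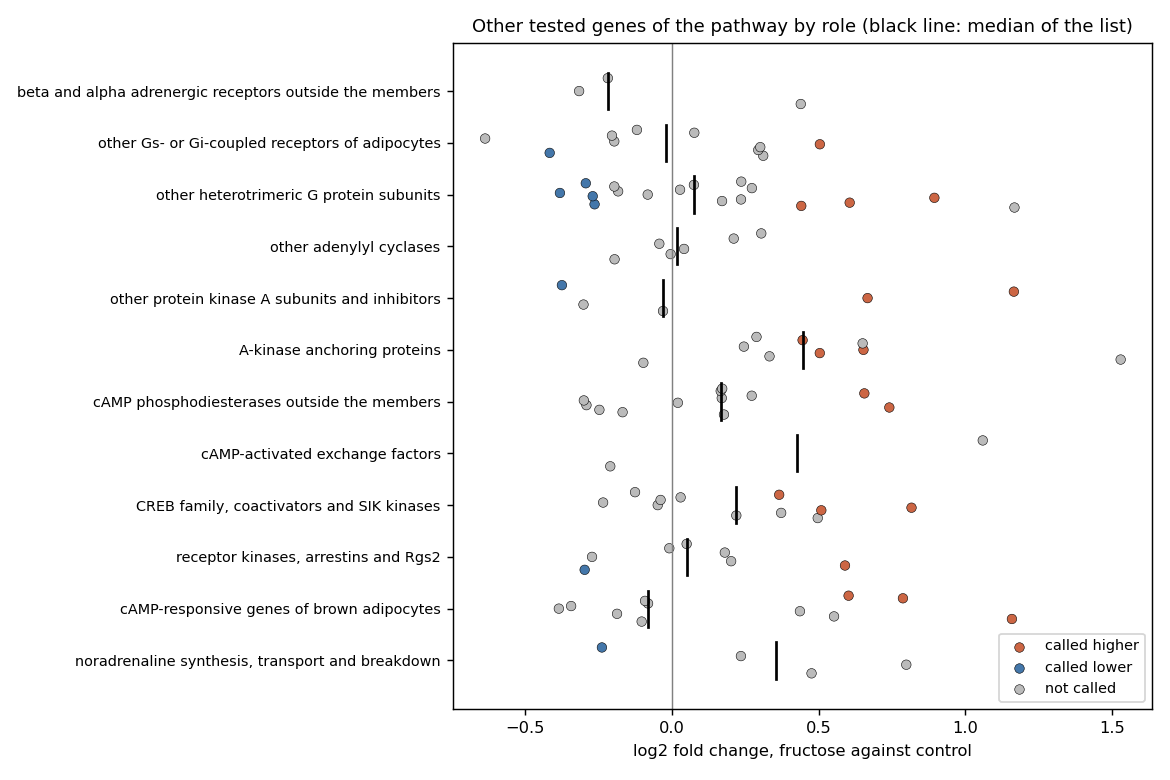
Log2 fold change of fructose against control for each of the 97 other tested genes, grouped by role, coloured by call, with a black line at the median of each list. The A-kinase anchoring proteins have a median of 0.45 and the adenylyl cyclases a median of 0.02.

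Among 10 other G protein-coupled receptors tested, 1 was higher and 1 lower (10% each), beside 15.5% and 10.7% of all tested genes. Tshr, the thyrotropin receptor gene, was higher, with 265, 218, 431 and 440 counts in control 1, control 2, fructose 1 and fructose 2 (log2 fold change 0.50, adjusted p = 0.0173). Adora2a, the gene of a Gs-coupled adenosine receptor, was lower, with 530, 503, 475 and 511 counts (-0.42, adjusted p = 0.0133). The lactate receptor gene Hcar1 had the highest level of this list, 45.9 CPM per kb, and did not pass the test (-0.20, adjusted p = 0.0819). Of 17 other G protein subunits, 3 were higher (17.6%) and 4 lower (23.5%), beside 15.5% and 10.7% of all tested genes. The alpha subunit genes Gnaq (0.89, adjusted p = 0.00127), Gnai3 (0.61, adjusted p = 0.0308) and Gnai1 (0.44, adjusted p = 0.0226) rose. Gnaq, a gene whose product can couple alpha-1 receptors to phospholipase C, had 190 and 189 counts in control and 402 and 498 in fructose. It was the only gene named in this paragraph that was called with the trends removed (0.73, adjusted p = 0.00466). The lower genes included the beta subunit gene Gnb2 (-0.38, adjusted p = 0.00669), the most abundant of the list at 155 CPM per kb, and Gng11 (-0.29, adjusted p = 0.0497). The alpha subunit genes Gna11 (-0.27, adjusted p = 0.0337) and Gnai2 (-0.26, adjusted p = 0.0452) were lower too. These 2 were the more abundant, at 32.9 and 64.7 CPM per kb over all libraries. Gnaq, Gnai3 and Gnai1, which rose, were at 2.37, 3.81 and 7.61 CPM per kb. Of 7 receptor kinases, arrestins and Rgs2, 1 was higher and 1 lower (14.3% each), beside 15.5% and 10.7% of all tested genes. Grk3 was higher (0.59, adjusted p = 0.00644) and Grk2, the most abundant at 22.5 CPM per kb, was lower (-0.30, adjusted p = 0.0170). Both are kinases that desensitise activated receptors.

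Of 5 other PKA subunit and inhibitor genes, 2 were higher (40%) and 1 lower (20%), beside 15.5% and 10.7% of all tested genes. Prkar2a, which encodes the RII-alpha subunit, rose from 245 and 236 counts to 483 and 489 (log2 fold change 0.67, adjusted p = 0.00342), and was still called with the trends removed (0.53, adjusted p = 0.0165). The PKA inhibitor genes went opposite ways, Pkia from 15 and 26 counts to 53 and 65 (1.17, adjusted p = 0.0310) and Pkig from 711 and 772 to 748 and 708 counts (-0.37, adjusted p = 0.0236). Prkar1a, the most abundant of this list at 47.8 CPM per kb, was at -0.03 (adjusted p = 0.813). Of 9 A-kinase anchoring protein genes, which tether PKA within the cell, 3 were higher (33.3%, beside 15.5% of all tested genes) and 0 lower. These were Akap9 (0.65, adjusted p = 0.0146), Akap8 (0.50, adjusted p = 0.0106) and Akap12 (0.45, adjusted p = 0.00439), and only Akap12 of the 3 was called with the trends removed (0.40, adjusted p = 0.0141). The mitochondrial anchor gene Akap1 was the most abundant at 96.1 CPM per kb and did not pass the test (-0.10, adjusted p = 0.452).

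Of 12 other cAMP phosphodiesterases, 2 were higher (16.7%, beside 15.5% of all tested genes) and 0 were lower. The 2 were Pde3a (log2 fold change 0.74, adjusted p = 0.0178) and Pde7b (0.66, adjusted p = 0.0174). With the trends removed they stood at 0.13 and -0.01, unlike Pde3b. Pde2a, the most abundant at 23.3 CPM per kb, was at -0.25 (adjusted p = 0.242). Neither of the cAMP-activated exchange factor genes passed the test, with Rapgef3 at -0.21 (adjusted p = 0.328) and Rapgef4 at 1.06 on at most 24 counts (adjusted p = 0.187). Of 11 genes of the CREB family, its coactivators and SIK kinases, 3 were higher (27.3%, beside 15.5% of all tested genes) and 0 lower. The acetyltransferase coactivators Ep300 (0.82, adjusted p = 0.000331) and Crebbp (0.51, adjusted p = 0.00579) rose, and so did the kinase gene Sik2 (0.37, adjusted p = 0.0271), the most abundant of the list at 14.9 CPM per kb. Ep300 remained called with the trends removed (0.43, adjusted p = 0.0134).

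Of 11 tested genes that cAMP is known to induce in brown adipocytes, 3 were higher and 0 lower. This was 27.3% higher, beside 15.5% higher and 10.7% lower over all tested genes, and the list was not tested as a set. Ppargc1a, the coactivator of mitochondrial biogenesis, rose from 131 and 135 counts to 322 and 438 (log2 fold change 1.16, adjusted p = 0.000812). Vegfa, an angiogenic factor, rose from 3040 and 2799 counts to 5102 and 6211 (0.60, adjusted p = 0.000924). Elovl3, a fatty acid elongase of brown fat, rose from 533 and 358 counts to 1142 and 797 (0.79, adjusted p = 0.0118). These 3 were called with the trends removed too, at 0.72, 0.66 and 0.98. Ucp1, which encodes the uncoupling protein of brown fat and was the most abundant at 6531 CPM per kb, had 183908 and 224071 counts in control and 248873 and 235302 in fructose. In CPM the groups of Ucp1 overlapped, at 9705 and 12425 against 11004 and 9606 (-0.10, adjusted p = 0.587). Dio2, the deiodinase that activates thyroid hormone, was at 0.55 (adjusted p = 0.0824). The immediate early genes Nr4a1 (-0.19, adjusted p = 0.621), Nr4a2 (0.44, adjusted p = 0.232), Fos (-0.38, adjusted p = 0.508) and Junb (-0.34, adjusted p = 0.0769) did not pass the test. Nor did Per1 (-0.08, adjusted p = 0.601) and Irs2 (-0.09, adjusted p = 0.579). The muscle markers given above were higher in the same libraries, and skeletal muscle also expresses Ppargc1a and Vegfa. The part of muscle in these changes was not tested.

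Transcripts of the genes that define noradrenaline-making nerves were at or near 0, and the nerve supply of the tissue was not tested. Dbh and Slc6a2 had 0 counts in every library, which allows up to 0.156 and 0.162 CPM in the control libraries and 0.134 and 0.127 CPM in the fructose libraries, for counting error only. Th had 1 count and Npy 2 counts over all 4 libraries. Ddc, a decarboxylase not limited to nerves, had 5 to 21 counts per library, and the vesicular transporter gene Slc18a2 had 8 to 33, and neither passed the test (adjusted p = 0.569 and 0.275). Maoa, which encodes an enzyme that breaks noradrenaline down, did not pass the test (log2 fold change 0.24, adjusted p = 0.287).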

How the data were processed

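RNA of fetal BAT was sequenced in 2 control and 2 fructose libraries. The authors deposited raw read counts per gene, and per the labels the reads passed through fastp, Bowtie2 2.0.0.5, TopHat2 2.0.0 and StringTie 2.2.0 on mm10. Per the study's methods, gene counts were taken from transcripts merged with Cuffmerge. The counting tool and its handling of strand and shared reads were not given in the sources used here. Exon lengths, GC content and coordinates came from GENCODE M21 (GRCm38), and 43 of 22298 listed genes had no annotation.

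Counts were filtered with filterByExpr, scaled by TMM and tested with edgeR 4.0.16 in R 4.3.3 over 12888 genes, with Benjamini-Hochberg adjustment and a threshold of 0.05. The common biological coefficient of variation was 8.52%. CPM used TMM-scaled totals, and levels between genes were divided by union exon length. Shares within a family were compared by an exact two-sided permutation test. The alternatives were DESeq2 1.42.0, other scalings and filters, the replicate number as a block, each library left out, and lowess trends of length and GC (span 0.3) removed. With a library left out, the lone library was assumed to vary like the other group. The trend fit on the longest transcript and the promoter motifs were chosen after seeing the data. The 9 genes and all lists were chosen with earlier results of these data known. Named were the 9 genes, the other adrenergic receptors, the tested cAMP-responsive genes, and in each list the most abundant gene and up to 3 called genes in each direction with the largest change. Genes outside that rule (Gnai2, Gnb4, Gng5, Sik3, Dbh, Slc6a2, Th, Npy, Ddc, Slc18a2 and Maoa) were named after their values were seen. Some genes that the rule names are not reported here.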

Additional observations from a re-analysis of the deposited data

How the results depend on the processing

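Over the 9 genes and 16 alternatives, 101 of 144 log2 fold changes kept their direction and side of the threshold, 24 lost the call, 6 gained it and 13 changed sign. The cause of these changes was not tested. Genes called higher over all tested genes numbered 2001, and 1280 with DESeq2, 1271 with the length trend removed, 1091 with the GC trend removed, 700 with both, 934 with both and the replicate block, 535 with longest-transcript length, and 1207 to 2225 with 1 library left out. Genes called lower numbered 1379, and 859 with library size only, 853 with both trends removed, 639 with longest-transcript length, 797 at an unadjusted p under 0.05 and a fold change above 1.3, and 485 to 1700 with 1 library left out. Of the 9 genes, 4 were called higher, and 2 with the length or the GC trend removed, 1 with longest-transcript length and 2 to 4 with a library left out. The 1 lower call, Gnas, became 0 with library size only, with at least 10 counts in every library, with the replicate block, with the GC trend removed, with longest-transcript length, at the unadjusted threshold, and without either fructose library (0 to 1). Of the 97 other genes of the route, 18 were higher, and 10 with DESeq2, 11 with the length trend removed, 7 with both trends, 9 with both and the block, 6 with longest-transcript length and 11 to 24 with a library left out. The 8 lower calls became 4 with library size only, 2 with the GC trend removed, 3 with both, 4 with both and the block, 3 with longest-transcript length, 2 at the unadjusted threshold and 1 to 14 with a library left out. The log2 fold change of Adrb1 turned to 0.11 with the GC trend removed, 0.14 with both, 0.13 with both and the block and 0.12 with longest-transcript length, and ran from -0.17 to 0.010 with a library left out. That of Adcy3 turned to 0.037 with library size only, 0.13 with the GC trend removed and 0.0078 with both and the block, and ran from -0.28 to 0.27 with a library left out. That of Prkaca turned to 0.067 with both trends removed, 0.068 with the block added and 0.047 with longest-transcript length. Of 54 share values 49 moved by no more than the spread between libraries, and the 5 that moved further came from a change of the length used. The values with a library left out could not move further. Leaving out 1 of 2 libraries cannot shift a mean beyond that spread, so these values say nothing on stability. The Adra1a share difference of 10.8 points was 11.4 on longest transcripts and 8.88 without division by length, that of Prkaca (-0.74 points) was -1.32 and -2.38, and that of Pde3b among phosphodiesterases (6.56 points) was 8.30 without division by length. Same-numbered libraries had deviations with a correlation of -0.0266, so the numbers were not taken as pairs. With the replicate block, 5 of the 9 genes were called higher, Adrb3 included (adjusted p = 0.0093), and Gnas was not called.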
